A study of Homo sapiens with 8 samples.

Results

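The Notch receptors NOTCH1, NOTCH2 and NOTCH3, the ligands JAG1, JAG2 and DLL1 and the target genes HES1, HES4, HEY1 and NRARP were followed in BT-549 cells, a human triple negative breast cancer line. They were chosen by name as core genes of 1 pathway, with earlier results of these data known. They are 10 of the 23228 genes counted. RNA-seq was done on cells kept for 24 h in RPMI medium with 10% FBS and DMSO (vehicle), 100 nM of EC359, 10 µM of vorinostat, or these doses of EC359 and vorinostat together (the combination). EC359 is an inhibitor of the leukemia inhibitory factor receptor (LIFR), and vorinostat, also called SAHA, is an inhibitor of histone deacetylases. Each of the 4 groups had 2 libraries, called 1 and 2 below. The study asked how EC359 alters the transcriptional response to an HDAC inhibitor, and these genes show what happened to 1 signaling pathway under each drug.

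Notch is a receptor that is read by touching neighbours. A ligand of the Jagged or Delta-like family on 1 cell pulls on the receptor of the next, proteases then cut the receptor, and its freed inner part enters the nucleus. There it joins the DNA-binding protein RBPJ and its partner Mastermind and turns on genes such as HES1, HES4 and HEY1, which encode repressors of transcription, and NRARP, which encodes a feedback inhibitor of the same complex. In breast tissue the pathway is known for its part in choosing cell fates, and in triple negative tumors for NOTCH1 and JAG1 activity.

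Between 19069450 and 24759041 reads per library were assigned to genes. In the RNA the line had the profile of a mesenchymal cell with low hormone receptors: VIM was at 2056 to 9442 CPM (counts scaled to a common library size), ESR1 at 0 to 20 counts and PGR at 0 to 1 count. ERBB2 was at 76.1 to 102 CPM with vehicle or EC359 and at 12.0 to 15.8 CPM in the 4 libraries with vorinostat. CD3E (0 to 1 count), PTPRC (0 to 15 counts) and the endothelial genes PECAM1, VWF and CDH5 (0 to 12 counts) were near 0, while CD68, the third of the leukocyte markers, was at 39.8 to 267 CPM. The summed level of 5 epithelial markers was 2.55 and 3.08 CPM with vehicle, 5.90 and 7.20 CPM with EC359, 22.0 and 11.8 CPM with vorinostat and 2.66 and 21.7 CPM with the combination. It was thus higher with each single drug than with vehicle, and the combination libraries lay near both ends of the range. Nothing in the labels says whether the libraries of a group came from separate cultures. The p-values thus measure the spread between these libraries, which may be technical. The 2 EC359 libraries were the least alike, as their gene-by-gene log2 gap had a standard deviation of 0.563. The same measure gave 0.448 for the combination, 0.349 for vehicle and 0.312 for vorinostat.

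All 10 genes passed the filter on low counts, which left 13694 genes for testing. A gene was called changed where its fold change exceeded 1 on the log2 scale, in either direction, and its p from the quasi-likelihood test of edgeR, adjusted over all tested genes by the Benjamini-Hochberg method, was under 0.01. EC359 alone raised HEY1 and lowered JAG2, so 2 of the 10 were called, 1 in each direction, against 3.67% of all tested genes (1.94% higher and 1.72% lower). Vorinostat alone raised NOTCH1, JAG1, JAG2, HEY1 and NRARP and lowered DLL1, which made 6 of 10 against 30.1% of all genes (16.8% higher and 13.3% lower). The combination raised 7 of 10 over vehicle, namely NOTCH1, JAG1, JAG2, HES1, HES4, HEY1 and NRARP, against 34.8% of all genes (19.5% higher). Compared with vorinostat alone, the combination had more HES1, HES4 and DLL1, 3 of 10 against 4.25% of all genes (3.37% higher). Without vorinostat library 1 or 2 or combination library 2 none of these 3 was called, and without combination library 1 there was 1. Compared with EC359 alone it had more JAG1, JAG2, HES4 and NRARP, 4 of 10 against 33.7% of all genes (19.8% higher). The median log2 fold change over vehicle of the 10 genes came to 0.44 after EC359, to 0.77 after vorinostat and to 1.77 after the combined drugs, and over all tested genes it was -0.02, 0.03 and 0.07. These 3 comparisons share the vehicle libraries. Since the 10 genes were chosen with earlier results known, their shares and medians are a description and not a test of the pathway.

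**Figure D1:**
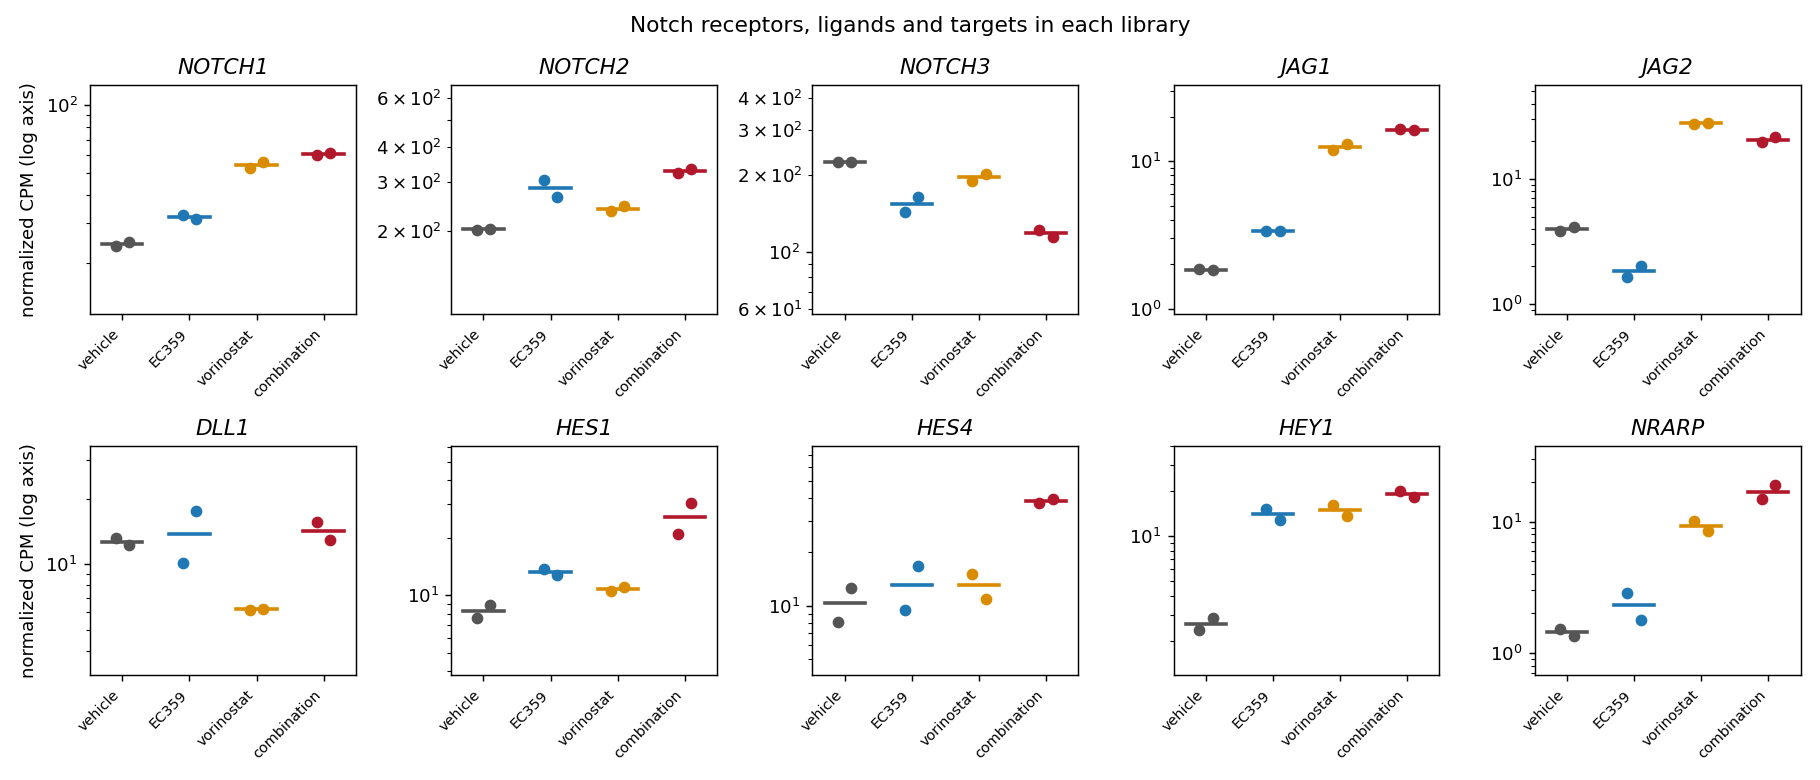
Expression of the 10 genes in each of the 8 libraries, in CPM on a log axis, with 1 panel per gene and 1 point per library, and a bar at the mean of each group. JAG1 rises from 1.82 and 1.84 CPM with vehicle to 16.3 and 16.5 CPM with the combination, while NOTCH3 falls from 225 CPM to 114 and 123 CPM.

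With vorinostat and with the combination, the receptors had a lower median log2 fold change over vehicle than the ligands or the targets. They did not all move in 1 direction. NOTCH1 (chromosome 9, 139388885 to 139440500, minus strand, GRCh37) was at 23.6 and 24.7 CPM with vehicle, 32.6 and 31.0 CPM with EC359, 52.5 and 55.7 CPM with vorinostat and 59.9 and 61.1 CPM with the combination. The groups did not overlap, and the large step was the one to vorinostat. On the log2 scale NOTCH1 rose by 1.16 with vorinostat (SE 0.10, adjusted p = 1.06e-05, edgeR) and by 1.32 with the combination (SE 0.10, adjusted p = 3.75e-06, edgeR). Its log2 difference between the combination and vorinostat was 0.16, with a 95% interval from -0.06 to 0.38.

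NOTCH2 (chromosome 1, 120454176 to 120643366, minus strand) was at 201 and 204 CPM with vehicle, 304 and 265 CPM with EC359, 235 and 246 CPM with vorinostat and 324 and 334 CPM with the combination. Every treated library was above both vehicle libraries, but no comparison reached the fold threshold. The log2 fold change was 0.49 with EC359 (adjusted p = 0.0071, edgeR), 0.25 with vorinostat (adjusted p = 0.038, edgeR) and 0.70 with the combination (adjusted p = 0.00012, edgeR). NOTCH2NL, a near-identical partial copy of NOTCH2, is counted as a gene of its own, and reads that fit both places could not be assigned to either.

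NOTCH3 (chromosome 19, 15269849 to 15311806, minus strand) went the other way. It was at 225 CPM in both vehicle libraries, 143 and 164 CPM with EC359, 189.8 and 202 CPM with vorinostat and 123 and 114 CPM with the combination. All treated libraries were below the vehicle libraries, and the combination libraries were lowest. The log2 fold change was -0.55 with EC359 (adjusted p = 0.0053, edgeR), -0.20 with vorinostat (adjusted p = 0.096, edgeR) and -0.92 with the combination (adjusted p = 3.05e-05, edgeR). None of these passed the fold threshold of 1. The combination value came to -1.01 when libraries were scaled by their total counts and to -1.02 without combination library 1, and was then called.

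Levels of different genes were compared per length, as CPM per kilobase of the canonical transcript. On this scale the 3 receptors summed to 46.0 to 46.4 with vehicle, 45.4 to 46.5 with EC359, 47.9 to 50.6 with vorinostat and 48.7 to 48.8 with the combination. The sum moved little while the makeup did not stay the same. NOTCH3 made 56.1% of the summed receptor level with vehicle and 28.0% with the combination, and NOTCH2 went from 38.4% to 59.0% (means of 2 libraries). NOTCH1 went from 5.47% to 13.0%. With EC359 alone NOTCH2 already led, at 54.1% against 38.6% for NOTCH3, whereas with vorinostat alone NOTCH3 still led, at 45.8% against 42.7%.

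Over vehicle, the ligands JAG1 and JAG2 changed more than any of the receptors under each treatment. JAG1 (chromosome 20, 10618332 to 10654647, minus strand), the Jagged ligand best known in breast cancer, was at 1.84 and 1.82 CPM with vehicle, 3.34 and 3.35 CPM with EC359, 11.9 and 13.1 CPM with vorinostat and 16.5 and 16.3 CPM with the combination. The groups stood in that order without overlap. JAG1 rose by 2.77 on the log2 scale with vorinostat (SE 0.17, adjusted p = 1.69e-06, edgeR) and by 3.16 with the combination (SE 0.17, adjusted p = 5.66e-07, edgeR). With EC359 alone its log2 fold change was 0.87 (SE 0.18, adjusted p = 0.013, edgeR), which was not called. The combination was 2.29 above EC359 alone (SE 0.16, adjusted p = 2.49e-06, edgeR).

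JAG2 (chromosome 14, 105607319 to 105635161, minus strand), the second Jagged ligand, was at 3.82 and 4.16 CPM with vehicle, 1.65 and 2.03 CPM with EC359, 27.6 and 28.2 CPM with vorinostat and 19.6 and 21.6 CPM with the combination. EC359 libraries were the lowest and vorinostat libraries the highest. JAG2 rose by 2.80 on the log2 scale with vorinostat (SE 0.16, adjusted p = 9.65e-07, edgeR) and by 2.37 with the combination (SE 0.16, adjusted p = 1.61e-06, edgeR). The step from EC359 alone to the combination was 3.49 (SE 0.17, adjusted p = 3.99e-07, edgeR). JAG2 was the 1 gene of the 10 called lower with EC359, at -1.12 (SE 0.18, adjusted p = 0.0035, edgeR). That call was lost when vehicle library 1 or 2, EC359 library 1 or vorinostat library 1 or 2 was left out (log2 fold change -1.17 to -0.97, adjusted p = 0.010 to 0.039, edgeR), and it was lost when the 4 libraries of these groups were fitted alone (adjusted p = 0.066, edgeR).

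DLL1 (chromosome 6, 170591294 to 170615653, minus strand), the Delta-like ligand of the set, was at 13.1 and 12.2 CPM with vehicle, 10.1 and 17.5 CPM with EC359, 6.17 and 6.21 CPM with vorinostat and 15.6 and 12.9 CPM with the combination. The vorinostat libraries were below all the rest, and the other 3 groups overlapped. DLL1 fell by 1.03 on the log2 scale with vorinostat (SE 0.25, adjusted p = 0.0052, edgeR), and the combination was 1.20 above vorinostat (SE 0.25, adjusted p = 0.0078, edgeR). Both calls were close to the thresholds. Each was lost on leaving out either library of the vehicle, vorinostat or combination group (adjusted p = 0.011 to 0.034 and 0.017 to 0.074, edgeR), and the second also with scaling by total counts (adjusted p = 0.014, edgeR). FAM120B overlaps DLL1 on the opposite strand and no source says whether reads were counted by strand, so reads of the shared stretch cannot be told apart. The log2 fold change of FAM120B was 0.53 with vorinostat, and -0.08 between the combination and vorinostat.

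Per kilobase, JAG1, JAG2 and DLL1 summed to 4.27 to 4.44 with vehicle, 3.53 to 5.55 with EC359, 8.41 to 8.73 with vorinostat and 9.89 to 10.3 with the combination. Among these 3, the leading ligand was not the same in every group. DLL1 made 77.0% of their sum with vehicle and 79.7% with EC359, but 19.1% with vorinostat, where JAG2 made 56.4% and JAG1 24.5%. With the combination the 3 were closer, at 37.2% for DLL1, 35.4% for JAG2 and 27.4% for JAG1, and the DLL1 and JAG2 shares overlapped between libraries. The ligands DLL3 and DLL4 were outside these sums. DLL3 was at a mean of 7.70 CPM with vehicle, 8.98 CPM with EC359, 9.72 CPM with vorinostat and 10.7 CPM with the combination. DLL4 was at a mean of 15.9 CPM with the combination. The canonical transcript has 2004 bases for DLL3 and 3426 for DLL4, against 3779 for DLL1. The shares thus do not show which of all ligands led.

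**Figure D2:**
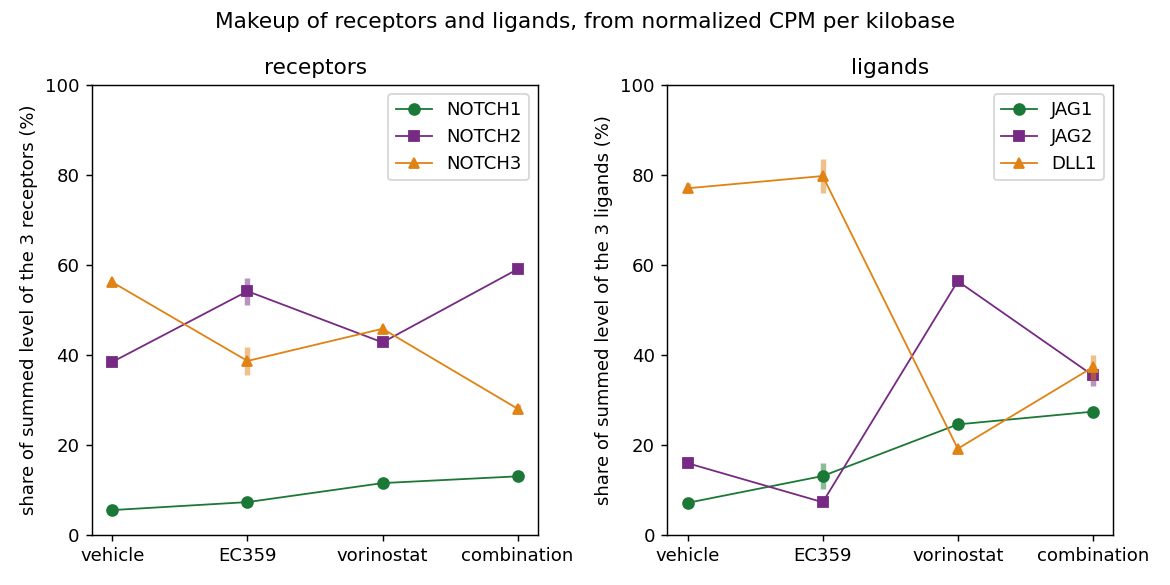
Mean percent of the summed level of the 3 receptors (left) and of the 3 ligands (right) made by each gene, from CPM per kilobase, in the 4 groups, where points are means of 2 libraries, vertical bars their range, and lines join the groups for reading only. DLL1 makes 77.0% of the level of these 3 ligands with vehicle and 19.1% with vorinostat, and NOTCH3 goes from 56.1% of the receptor level with vehicle to 28.0% with the combination.

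HES1 and HES4 were the 2 targets called higher in the combination than with vorinostat alone. HES1 starts at position 193853937 on the plus strand of chromosome 3, and HES4 lies at 934342 to 935552 on the minus strand of chromosome 1 (GRCh37). The sequences around the start of both genes are shown because, of the 8 genes with a promoter in the RefSeq table, they alone held TGGGAA, the core of the motif that RBPJ binds. HEY1 and DLL1 had no promoter there and were not searched. The RefSeq windows run from 250 bases before the start to 50 bases after it and are of the GRCh38.p14 build. Those of the 8 genes were placed on GRCh37 by exact match, except that of NOTCH2, which had no match. Here HES1 is shown at chr3:193853687-193853936 and HES4 at chr1:935523-935727, each 5′ to 3′ on the strand of its gene, with TGGGAA in capitals. The HES1 stretch ends at the start of the gene. RefSeq starts HES4 at 935477, inside the gene as GENCODE gives it, so the HES4 stretch holds 30 bases of the GENCODE gene and leaves out the 45 bases before the RefSeq start.
HES1: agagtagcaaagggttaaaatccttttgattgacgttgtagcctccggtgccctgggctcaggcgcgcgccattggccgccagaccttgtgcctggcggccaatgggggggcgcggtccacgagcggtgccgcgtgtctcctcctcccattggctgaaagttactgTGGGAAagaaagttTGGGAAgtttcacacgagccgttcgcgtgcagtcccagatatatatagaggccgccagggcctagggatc
HES4: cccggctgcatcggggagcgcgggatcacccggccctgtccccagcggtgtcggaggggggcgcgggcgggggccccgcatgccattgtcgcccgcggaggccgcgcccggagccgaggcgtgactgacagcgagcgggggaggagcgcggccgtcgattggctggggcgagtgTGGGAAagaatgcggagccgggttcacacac
TGGGAA stood at positions -84 and -70 from the RefSeq start of HES1 and at -76 from that of HES4, in each case in the direction of the gene. The copies at -84 and -76 were part of the longer GTGGGAA, which overlaps it by construction. On either strand, TGGGAA was in 24.3% of 27305 RefSeq promoters of the same length and GTGGGAA in 6.28%, and in 21.57% and 5.67% of the promoters of tested genes, so the short motif alone is common. CACNAG, the N box bound by HES proteins, was in 5 of the 8 promoters, in 37.98% of all and in 34.34% of those of tested genes. CACGNG, a site bound by HES and HEY proteins, was in 6 of the 8, in 30.41% of all and in 41.53% of those of tested genes, and the 2 motifs overlap where the letters are CACGAG. A match is a description of the letters, not of binding.

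HES1, a repressor that keeps cells from differentiating, was at 7.65 and 8.88 CPM with vehicle, 13.7 and 12.7 CPM with EC359, 10.5 and 11.0 CPM with vorinostat and 21.0 and 30.3 CPM with the combination. Neither single drug gave a call, and both combination libraries were above the other 6. The log2 fold change of HES1 was 0.68 with EC359 (adjusted p = 0.043, edgeR) and 0.38 with vorinostat (adjusted p = 0.11, edgeR), and it rose by 1.64 with the combination (SE 0.19, adjusted p = 5.98e-05, edgeR). The combination was 1.26 above vorinostat (SE 0.19, adjusted p = 0.0017, edgeR). That call was lost without vorinostat library 1 or 2 or combination library 2 (log2 fold change 0.92 to 1.25, adjusted p = 0.015 to 0.031, edgeR). Over EC359 alone the combination was 0.96 higher (SE 0.19, adjusted p = 0.0014, edgeR), under the fold threshold, and 1.13 higher without combination library 1, which was called. The combination library with more HES1 was also the one with more of the epithelial markers, at 21.7 against 2.66 CPM. The same held with vehicle, but with EC359 and with vorinostat the library with more of these markers had slightly less HES1. The part of the marker difference in the HES1 level was not tested.

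HES4, a related repressor, was at 8.12 and 12.5 CPM with vehicle, 9.48 and 16.6 CPM with EC359, 15.1 and 10.9 CPM with vorinostat and 37.9 and 39.5 CPM with the combination. The 3 groups without the combination overlapped, and the combination libraries stood above all of them. HES4 rose by 1.91 on the log2 scale over vehicle (SE 0.29, adjusted p = 0.0003, edgeR), and was 1.58 above vorinostat (SE 0.28, adjusted p = 0.004, edgeR) and 1.58 above EC359 (SE 0.28, adjusted p = 0.00093, edgeR). The call over vorinostat was lost without either library of these 2 groups (log2 fold change 1.32 to 1.79, adjusted p = 0.025 to 0.058, edgeR). The call over EC359 was lost without either combination library (adjusted p = 0.010 to 0.012, edgeR). Each single drug gave a log2 fold change of 0.33 over vehicle, with a 95% interval from -0.33 to 0.99 in both cases.

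HEY1 (chromosome 8, 80674606 to 80680092, minus strand), the Hairy-related repressor of the set, was at 2.36 and 2.85 CPM with vehicle, 15.3 and 12.8 CPM with EC359, 16.3 and 13.6 CPM with vorinostat and 20.1 and 18.2 CPM with the combination. Either drug alone brought it well above vehicle, the EC359 and vorinostat libraries overlapped, and the combination libraries were a little higher. HEY1 rose by 2.43 on the log2 scale with EC359 (SE 0.19, adjusted p = 5.27e-05, edgeR), by 2.52 with vorinostat (SE 0.19, adjusted p = 4.94e-06, edgeR) and by 2.87 with the combination (SE 0.19, adjusted p = 1.64e-06, edgeR). The combination differed from vorinostat by 0.36 (95% interval -0.01 to 0.73) and from EC359 by 0.44 (95% interval 0.07 to 0.81).

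NRARP (chromosome 9, 140194083 to 140196723, minus strand), the feedback inhibitor, was at 1.51 and 1.35 CPM with vehicle, 2.85 and 1.78 CPM with EC359, 10.1 and 8.50 CPM with vorinostat and 14.8 and 18.9 CPM with the combination. The groups stood apart in that order. NRARP rose by 2.69 on the log2 scale with vorinostat (SE 0.27, adjusted p = 2.56e-05, edgeR) and by 3.55 with the combination (SE 0.26, adjusted p = 3.34e-06, edgeR), the largest of the 10 changes over vehicle with the combination. Its log2 fold change was 0.70 with EC359 (adjusted p = 0.14, edgeR) and 0.86 between the combination and vorinostat (adjusted p = 0.018, edgeR), and neither was called. Over EC359 alone the combination was 2.85 higher (SE 0.25, adjusted p = 9.64e-06, edgeR).

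Per kilobase the 4 targets summed to 15.7 to 21.5 with vehicle, 27.4 to 33.3 with EC359, 28.7 to 35.0 with vorinostat and 70.9 to 79.4 with the combination. The single drugs overlapped, and the combination was above both. HES4 led the target level in each group, with 62.0% with vehicle and 58.3% with the combination. With vehicle the order of all 10 genes per kilobase ran from NOTCH3 at 25.9 and NOTCH2 at 17.7 through HES4, HES1, DLL1, NOTCH1, HEY1, JAG2 and NRARP to JAG1 at 0.308 (means of 2 libraries). With the combination HES4 was first at 43.7 and NOTCH2 second at 28.8. HES1 at 16.3 and NOTCH3 at 13.7 followed and overlapped between libraries, and JAG1 was last at 2.76, behind DLL1 and JAG2, which overlapped each other.

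**Figure D3:**
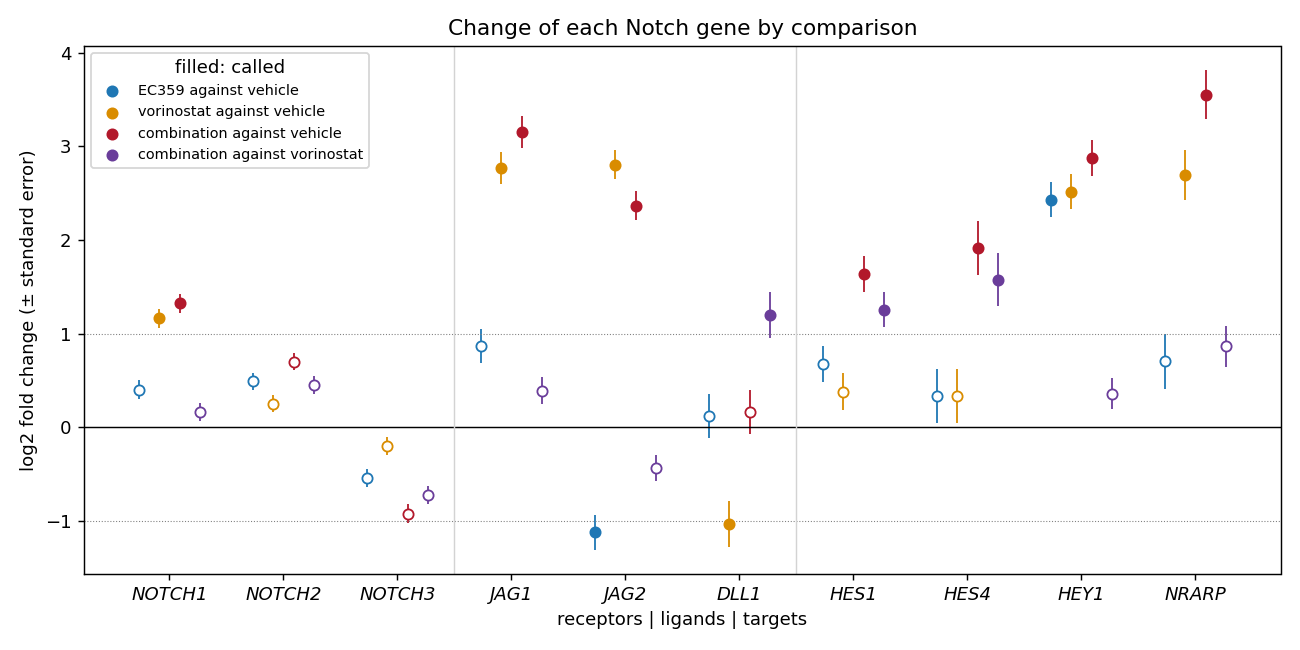
Log2 fold change (vertical axis) of each of the 10 genes over vehicle for EC359, vorinostat and the combination, and of the combination over vorinostat, with bars of 1 standard error from edgeR's fit, filled points for called changes and dotted lines at 1 and -1. NRARP is highest, at 3.55 with the combination, and NOTCH3 and JAG2 with EC359 and DLL1 with vorinostat are among the points below 0.

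The last comparison asked whether the 2 drugs added up, on the log2 scale, in the combination. For 9 of the 10 genes the interaction was not called (2.1% of all tested genes were), and HEY1 was the exception. The single drugs sum to 4.95 for HEY1 and the combination gave 2.87, a difference of -2.07 (SE 0.25, adjusted p = 0.0021, edgeR). The HEY1 call was lost when any 1 library of the vehicle, vorinostat or combination groups was left out (log2 difference -2.25 to -1.95, adjusted p = 0.010 to 0.022, edgeR), and it held without either EC359 library. Among the genes with a positive value, HES4 had 1.24 (95% interval 0.33 to 2.16, adjusted p = 0.11, edgeR) and DLL1 1.08 (95% interval 0.30 to 1.86, adjusted p = 0.10, edgeR). Both were called when EC359 library 2 was left out, at 1.69 for HES4 and 1.51 for DLL1. More of all tested genes were called for the interaction in that fit too. HES1 had 0.58 and JAG2 0.69, and JAG1 had -0.48, none of them called.

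**Figure D4:**
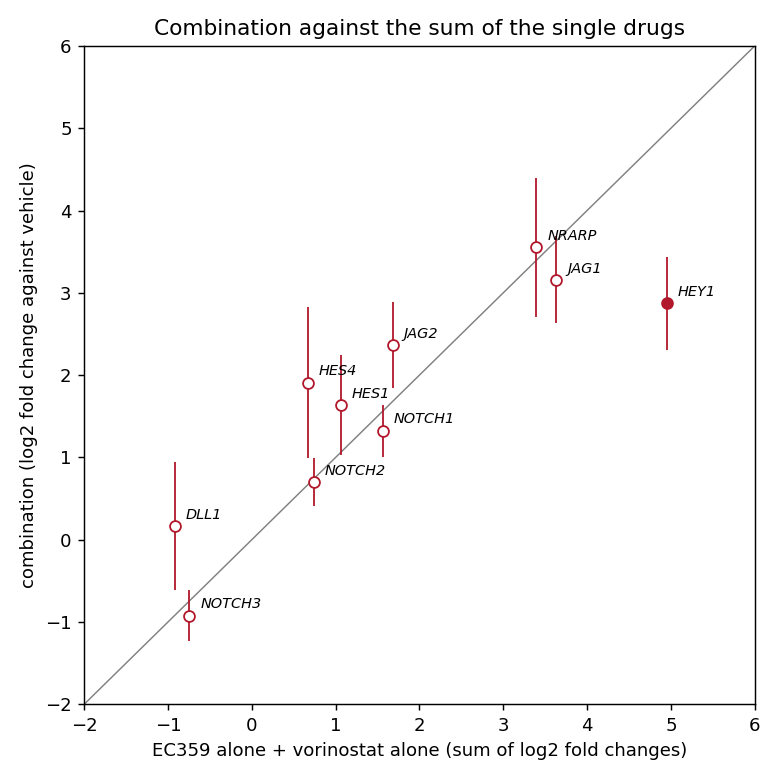
Log2 fold change over vehicle in the combination (vertical axis) against the sum of the log2 fold changes of EC359 alone and vorinostat alone (horizontal axis), with 1 point per gene, a diagonal where both are equal, and bars for the 95% interval of the interaction. The filled point, HEY1, was called and lies farthest below the diagonal (2.87 against 4.95), and HES4 (1.91 against 0.66) and DLL1 (0.16 against -0.92) lie farthest above it.

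The rest of the pathway was read from 58 further genes listed by role, 52 of which passed the filter. Over vehicle, EC359 changed 2 of these 52 (3.85%, against 3.67% of all tested genes), vorinostat 17 (32.7% against 30.1%) and the combination 23 (44.2% against 34.8%). Between the combination and vorinostat 1 was called (1.92% against 4.25%), and between the combination and EC359 20 were (38.5% against 33.7%). Most of these shares were close to those of all genes. Their median log2 fold changes were 0.01, -0.14 and 0.04 over vehicle, near those of all genes. None was called for the interaction in edgeR's quasi-likelihood test, where 9 had an unadjusted p under 0.05, and 2 were called in DESeq2. Without EC359 library 2 more of them were called with EC359 and between the combination and vorinostat, and without either vehicle library fewer with EC359. The same was true of all tested genes. DESeq2 called the interaction for 685 of 12849 genes. More pathway genes were called for the interaction when either EC359 library was left out, but so were more of all tested genes. Below the filter were HES3, HES5, HEYL, DLK1, DTX1 and NEURL1.

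Among the other receptors, ligands and HES or HEY genes, 8 of 12 were tested, and with the combination 5 were higher than vehicle and 1 lower. Of all tested genes, 19.5% were called higher in that comparison and 34.8% in either direction. HES7, a clock gene of the segmenting embryo, was at 3.12 and 2.76 CPM with vehicle, 7.59 and 6.19 CPM with EC359, 36.8 and 34.1 CPM with vorinostat and 61.8 and 67.6 CPM with the combination. The groups stood apart, and HES7 rose by 1.23, 3.59 and 4.46 on the log2 scale (adjusted p = 0.0012, 3.39e-07 and 7.14e-08, edgeR). The EC359 call was lost without either vehicle library and with the groups fitted alone. DLL4, the ligand of sprouting vessels, had 0 and 3 counts with vehicle, 4 and 8 with EC359, 101 and 124 with vorinostat and 301 and 322 with the combination. From near 0 it thus reached 74.3 times the vehicle level with vorinostat (95% counting interval 25.1 to 363) and 226 times with the combination (77.0 to 1099), intervals that cover counting error only. It was the 1 pathway gene called between the combination and vorinostat, with a log2 difference of 1.60 (SE 0.27, adjusted p = 0.0028, edgeR), a call lost without any 1 library of those groups. HES2 had 2 counts in each vehicle library, 0 in both EC359 libraries, 72 and 65 with vorinostat and 25 and 24 with the combination. Over EC359 its level was at least 46.7-fold higher with vorinostat and at least 18.4-fold higher with the combination, set against 3 counts over the EC359 group. HEY2 rose by 1.96 and HES6 by 1.54 with the combination. The HES6 call was lost without any 1 library of the combination or vehicle group. DLK2, a ligand-like protein that restrains Notch, fell by 3.39 with the combination and by 2.69 with vorinostat.

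The machinery around the receptor moved in both directions. So did all tested genes with the combination, where 2666 were called higher than vehicle and 2097 lower (34.8% together). Among the protease genes, NCSTN and APH1A, both subunits of gamma-secretase, fell by 1.71 and 1.29 on the log2 scale with the combination over vehicle. NCSTN was at 185 and 163 CPM with vehicle, 166 and 142 CPM with EC359, 75.3 and 79.7 CPM with vorinostat and 49.9 and 56.5 CPM with the combination. The sheddases ADAM10 and ADAM17 were not called, at -0.36 and 0.75. Of 5 enzymes that put sugars on the receptor, LFNG rose by 1.87, POGLUT1 fell by 1.50 and 3 were not called. LFNG, a Fringe enzyme, was not called without vehicle library 2 (adjusted p = 0.011, edgeR).

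Of 18 genes of the nuclear complex and corepressors, 1 was higher and 6 were lower with the combination than with vehicle. Of all tested genes, 34.8% were called there, 19.5% of them all as higher. RBPJ itself was not called, at -0.57 under vorinostat, -0.22 under the combination and 0.48 under EC359. TLE3 rose by 1.89, while CTBP1 fell by 1.76 and CTBP2 by 1.78, which are corepressors. The coactivator MAML2 fell by 1.28, the acetyltransferase KAT2A by 1.70, the corepressor NCOR1 by 1.05 and TLE4 by 1.40, and TLE2 was called over EC359 alone (1.03), but not without combination library 2 or either vorinostat library (0.77 to 0.96), nor with total counts, with no filter on low counts or with the groups fitted alone (0.96 to 0.99). The MAML2 call was lost without vehicle library 1 or either combination library, and the NCOR1 call without vehicle library 1. Of 12 tested genes of endocytosis and turnover, 3 were higher and 2 lower, to be read against the same 34.8% of all tested genes. NUMB, which antagonizes Notch, rose by 1.22, and DTX3L, a ubiquitin ligase, fell by 2.61 with the combination, by 2.01 with vorinostat and by 1.13 with EC359. Of its relatives, DTX4 rose by 2.26, DTX2 by 1.04 and DTX3 fell by 2.17 with the combination, and the DTX2 call was lost with total counts, with no filter on low counts, and without vehicle library 2, combination library 2 or either vorinostat library (log2 fold change 0.85 to 0.99). MIB2, which helps ligands enter the cell, was called over EC359 alone (1.02), a call lost with each other scaling, in DESeq2, with no filter on low counts, with the groups fitted alone and without EC359 library 1 or any library of the vorinostat and combination groups (0.95 to 0.99). In CPM DTX3L was at 65.3 and 61.1 with vehicle, 29.3 and 28.3 with EC359, 16.4 and 15.1 with vorinostat and 10.3 and 10.5 with the combination.

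**Figure D5:**
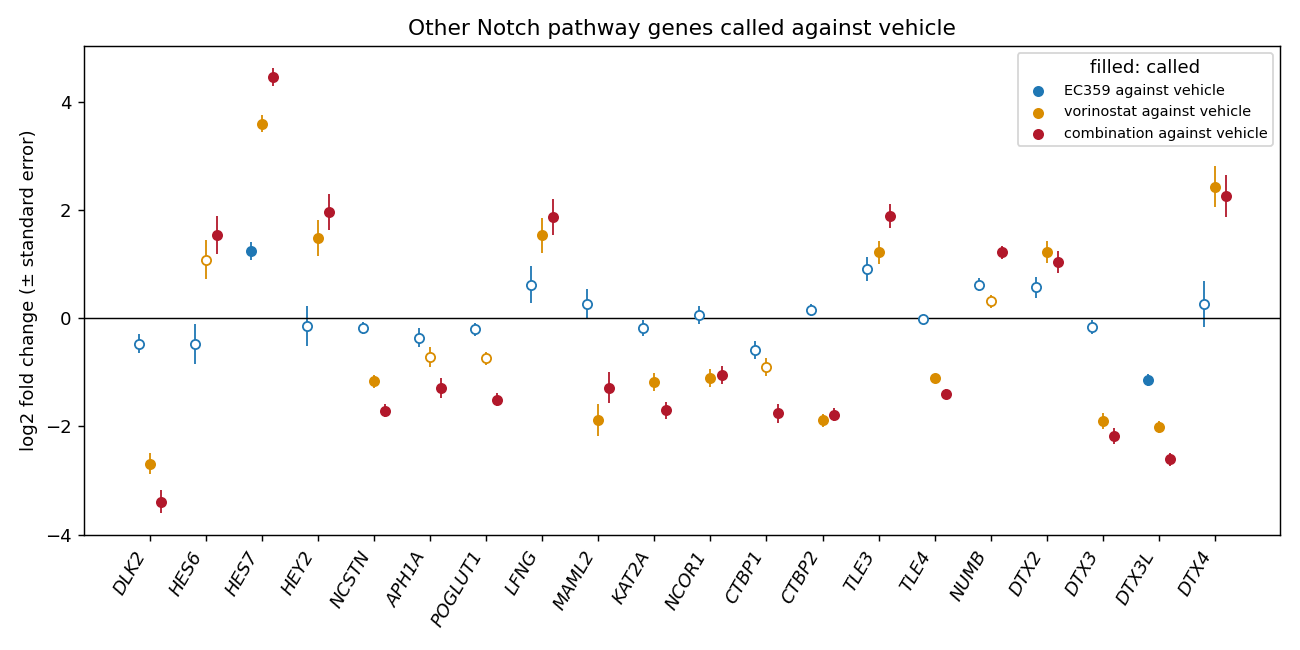
Log2 fold change over vehicle (vertical axis) of 20 further Notch pathway genes called in at least 1 comparison with vehicle, for EC359, vorinostat and the combination, with bars of 1 standard error and filled points for called changes. DLL4 and HES2 are left out because their vehicle counts are at or near 0. HES7 is highest (4.46 with the combination) and DLK2 lowest (-3.39).

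As a description of which genes had the most similar course, the log2 CPM of each gene was set against 9975 other genes with an average log2 CPM of at least 3. The 8 libraries fall into 4 groups of 2, so such a likeness rests on few independent levels and has no test. NOTCH1 and JAG1 were among the 3 nearest genes of each other (Pearson r = 0.998 over 8 libraries), beside HERC3 for NOTCH1 and SPAG9 for JAG1 (both r = 0.999). NOTCH3 ran closest to COL1A2 (r = 0.993), HEY1 to STX3 (r = 0.994), HES1 to CDK7 (r = 0.977) and HES4 to RMND1 (r = 0.977). An r over 0.95 was reached by 580 genes for NOTCH1, 681 for JAG1 and 830 for JAG2, but by 5 for HES4 and 8 for DLL1.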

How the data were processed

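Total RNA of 8 BT-549 libraries (4 groups of 2) was sequenced as 50 bp single-end reads. For each library the authors deposited a list of gene symbols with raw counts, which were not normalized. Per the labels and the study's methods, reads were aligned to hg19 with TopHat2 (2.0.8b in the submitters' processing notes) and counted on NCBI RefSeq genes with HTSeq, whose version and strand setting are not given in the sources used here. The 5 summary lines of each list were left out. Reads outside any gene were 11.0% to 14.2%, and reads whose place overlaps more than 1 gene 0.649% to 0.850%. Both are shares of the sum of these reads and those assigned to a gene.

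Genes were kept by filterByExpr of edgeR 4.0.16 (R 4.3.3), scaled by TMM, and fitted with 1 mean per group over 8 libraries (common dispersion 0.0135, prior degrees of freedom 4.98). All 4 groups shared the dispersion of a gene, although the EC359 libraries were the least alike. Whether this understates the errors of comparisons with EC359 and of the interaction was not tested. The quasi-likelihood test of edgeR was used for each comparison, with Benjamini-Hochberg adjustment over all tested genes. Standard errors were taken from the log2 fold change and its F statistic (the ratio of its size to the root of F). Interactions were called at an adjusted p under 0.01 alone. CPM use TMM-scaled totals. A floor of 3 counts stands for a group at 0. Scripts were tested on simulated data.

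The 10 genes, the pathway list and the markers were chosen with earlier results of these data known. The named genes are all 10, the pathway genes called in at least 1 comparison, and others as counts or values. RBPJ, DLL3, ADAM10 and ADAM17, which were not called, were named after their values were seen. Coordinates and canonical transcripts are from GENCODE v44 on GRCh37 (the same build as hg19), and NEURL1 was matched by an older symbol. Protein sequences were not used here, and 1 gene of the pathway list is counted but not reported here. Alternatives were DESeq2 1.42.0, other size factors (RLE, total counts), no filter on low counts, a replicate block, the groups fitted alone, no fold threshold and each library left out.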

Additional observations from a re-analysis of the deposited data

Results flagged for a closer look

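HEY1 drew attention because its response to one drug differed with the presence of the other. The interaction of EC359 and vorinostat was -2.07 on the log2 scale in edgeR's quasi-likelihood test (SE 0.25, adjusted p = 0.0021), so EC359 raised HEY1 by 2.43 without vorinostat, while with vorinostat the difference was 0.36. The cause was not tested.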

How the results depend on the processing

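Scaling by RLE size factors, DESeq2 and dropping the filter on low counts left every count of called genes for the 10 as it was, and for the 10 genes no call was lost under these 3 settings. Fitting only the 4 libraries compared changed the count of the 10 with EC359 to 1, that of the pathway with EC359 to 1 and that of the pathway between the combination and vorinostat to 2. Without a fold threshold the 10 gave 4 calls with EC359, 9 with the combination, 5 between the combination and vorinostat and 7 between the combination and EC359, and the pathway gave 6 with EC359, 28 with vorinostat, 35 with the combination, 11 between the combination and vorinostat and 34 between the combination and EC359. Dropping the threshold raised the calls among all 13694 tested genes too, and the pathway counts are to be read against these. They came to 1071 for EC359 over vehicle, 7130 for vorinostat and 7718 for both drugs together. Against the single drugs, the combined drugs then had 1877 (over vorinostat) and 7642 (over EC359). DESeq2 called 2 pathway interactions. With either EC359 library left out, more of all tested genes were called for the interaction. With 1 library left out, the lone library of a group is taken to vary like the others. The counts for the 10 and for the pathway then changed with EC359, between the combination and vorinostat and for the interaction. Those of all tested genes changed in these fits too, so the shifts are not particular to the pathway. Direction changed for values near 0 that were not called. The DLL1 difference between the combination and EC359 was -0.030 with total counts, -0.020 without the filter and -0.0053 with the groups alone, and ran from -0.31 to 0.47 with a library left out. So did DLL1 with EC359 (-0.31 to 0.47) and the combination (-0.025 to 0.24), HES4 with EC359 (-0.11 to 0.69), and the interactions of NOTCH2 (-0.14 to 0.059) and NRARP (-0.13 to 0.55). DESeq2 moved the median log2 fold change of all genes with vorinostat from 0.03 to 0.15. Scaling by total counts gave 380 higher and 182 lower genes between the combination and vorinostat, against 462 and 120.

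The correlations of same-numbered deviations ran from -0.17 to 0.23, which cannot settle whether the replicate numbers pair libraries across groups. With the replicate number as a block, 1 call of the 10 was lost, DLL1 between the combination and vorinostat (1.20, adjusted p = 0.012, edgeR), so that 2 were called there. The pathway counts stayed as they were. With the numbers crossed, chosen after seeing the data, the 10 kept their counts and the pathway had 1 interaction and 18 calls with vorinostat. At 2 libraries a group, DLL4, HES2, HEY2 and DTX4 rest on few counts, which limits how small a difference can be shown. Among the 10 genes, NRARP had 32 and 29 counts with vehicle, JAG1 39 and 39 with vehicle and JAG2 40 and 40 with EC359.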
